A study of Homo sapiens with 12 samples.

Results

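Messenger RNA for the proteins that build the centromere and kinetochore, and that make up the spindle checkpoint, was followed in TIGK cells, which are keratinocytes of the human gingiva made immortal by transfection of telomerase (hTERT). The members were chosen by name from the deposited gene table: protein-coding genes whose symbol begins with CENP and a further letter (26 genes), and 22 listed subunits of the kinetochore, the checkpoint, the SKA complex and the shugoshins. They made up 48 of the 58735 genes of the table, and 47 of them had at least 1 count. The cells were cultured in a base medium that lacked Arg, supplemented with growth factors and pituitary extract and raised to 48 mM glucose. They received either 500 µM Arg or no Arg (untreated control) for 24 or 48 h. Each of the 4 groups had 3 libraries, lettered A, B and C, for 12 in all. All libraries came from a single line, and no source used here says whether the letters were separate cultures, so the p-values measure the spread between these libraries, which may be technical. All groups shared the high glucose, so an effect of glucose itself was not analysed here.

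The centromere is a stretch of chromatin marked by CENPA, a variant of histone H3. The inner kinetochore proteins of the constitutive centromere-associated network (CCAN) assemble on it, and they hold the outer KMN network, named after KNL1, the MIS12 complex and the NDC80 complex, which grips spindle microtubules. Kinetochores that are not attached recruit the checkpoint proteins TTK, BUB1, BUB1B, BUB3, MAD1L1 and MAD2L1, which delay anaphase. Transcripts of many of these genes accumulate as cells pass through G2 into mitosis, so in a mixed culture a level depends on the share of cells that are cycling as well as on the RNA in each cell. In bulk RNA these cannot be told apart.

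Library totals ran from 16542243 to 19040964 counts, of which the members took 0.238% to 0.278%. All 8 keratinocyte markers were detected, KRT5 at 24118 CPM (counts scaled to a common library size) or more in every library. The 4 melanocyte, 3 endothelial and 4 leukocyte markers were low. Their highest values in any library were 2.84 CPM (PMEL), 1.84 CPM (VWF) and 3.28 CPM (CD14), and TYR (melanocyte) and LYZ (leukocyte) had no count. The 6 fibroblast markers summed to between 30.2 and 54.4 CPM at 24 h and between 72.7 and 103 CPM at 48 h, carried by DCN and COL1A1, with COL1A2 at 1 count at most. Counts of libraries within a group were compared by chi-square per degree of freedom. At 24 h, control library B had 12.3 and 12.5 with A and C, against 6.54 between A and C. Arg library A had 12.4 and 10.9 with B and C, against 5.41 between B and C. Library B of the 48 h control stood apart the most. Mitochondrially encoded genes took 1.55% of its counts, the highest share of the 12, and its counts differed from those of libraries A and C by a chi-square of 20.9 and 23.9 per degree of freedom, against 3.66 between A and C. The members' counts at 48 h, over time in the controls and in the interaction, and the values of the members singled out there, are therefore also given without it, while the partner lists and the length correlations use all 12 libraries.

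Levels between members were compared as CPM per kilobase of exonic length, averaged over the 12 libraries. CENPB, which binds a short motif in centromeric satellite DNA, had the highest level (63.6 ± 7.95, SD over 12 libraries). ZWINT, an outer kinetochore protein that binds KNL1, followed at 55.6 ± 6.14, a difference within their combined spread. CENPW, a histone-fold subunit of the CCAN, came next at 43.8 ± 4.52. The CENPA transcript itself was at 18.7 ± 4.23 and NDC80 at 19.9 ± 2.99, with overlapping spreads. The scaffold subunit KNL1 was lower, at 4.77 ± 0.549. The other end of the CCAN held CENPP (0.988), CENPS (1.80) and CENPC (2.05), which links CENPA nucleosomes to the MIS12 complex. The checkpoint genes lay between 6.06 (MAD1L1) and 30.8 (BUB3). The CENPV-like genes were at or near 0: CENPVL2 had no count, CENPVL1 had 1 count and CENPVL3 had 92 in all. CENPS-CORT, a readthrough gene that shares 1136 exonic bases with CENPS, had 16 counts. After the filter on low counts 45 members were tested at 24 h and 44 at 48 h.

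**Figure D1:**
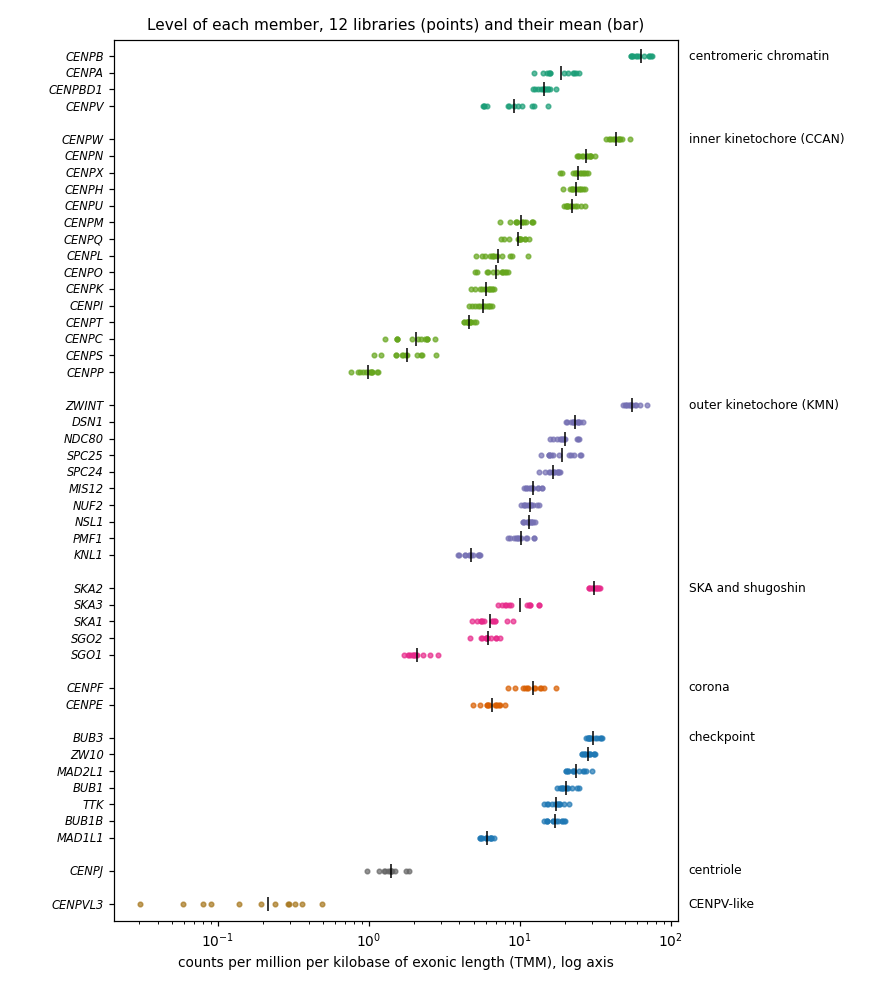
Level of the 45 members that passed the count filter at 24 h, in CPM per kilobase of exonic length on a log axis; each point is 1 of the 12 libraries, the bar is their mean, and colours mark the role groups. CENPB and ZWINT had the highest means (63.6 and 55.6), and CENPVL3 the lowest of those drawn.

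The comparison of Arg with the untreated control at 24 h asked which members responded to Arg at the earlier time in high glucose. At 24 h 6 members were significantly upregulated by Arg (edgeR quasi-likelihood test, Benjamini-Hochberg adjusted over all genes). They were the microtubule-binding subunit NDC80, its neighbour ZWINT, the checkpoint kinase BUB1 and its relative BUB1B, the corona protein CENPF and the CCAN subunit CENPL. CENPV, a centromere-associated protein with a role in chromatin organisation, was the only member downregulated. Of all 14279 genes tested, 2.79% were called higher and 3.84% lower, so the 6 of 45 called higher were a larger share than the background and the 1 called lower was not. Of the 45 members, 34 had a positive log2 fold change, with a median of 0.15 against 0.0030 for all genes. The Arg and control libraries did not overlap for 17 members that were higher, where 12.9% of all genes behaved so, and for 2 that were lower (CENPV and PMF1), where the background was 13.4%. The summed level of all members was between 2463 and 2549 CPM in the controls and between 2763 and 2833 CPM with Arg, with no overlap.

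NDC80 (chromosome 18, 2571511 to 2616635, GRCh38) forms the rod that contacts the microtubule. It was at 60.0, 63.7 and 57.2 CPM in the control libraries and at 89.7, 86.7 and 87.8 CPM with Arg. All Arg libraries were far above all controls. Its log2 fold change was 0.54 (SE 0.0842, adjusted p = 0.000797, edgeR), a 1.46-fold difference.

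BUB1B (chromosome 15, 40161023 to 40221136) encodes BUBR1, a component of the mitotic checkpoint complex that restrains the anaphase-promoting complex. It was at 68.3, 67.7 and 64.9 CPM in the controls and at 87.6, 86.1 and 89.1 CPM with Arg. The groups were well separated, with a log2 fold change of 0.39 (SE 0.0817, adjusted p = 0.0084, edgeR). BUB1 (chromosome 2, 110637698 to 110678114), the kinase that phosphorylates histone H2A at the centromere, was at 117, 125 and 107 CPM in the controls and at 149, 133 and 146 CPM with Arg. The lowest Arg library was above the highest control, by a smaller margin than for BUB1B. Its log2 fold change was 0.29 (SE 0.0850, adjusted p = 0.0476, edgeR), close to the threshold.

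CENPF (chromosome 1, 214603195 to 214664588), a large coiled-coil protein that gathers at kinetochores in late G2, was at 110, 123 and 98.7 CPM in the controls and at 132, 170 and 146 CPM with Arg. Its Arg libraries were widely spread but did not overlap the controls (log2 fold change 0.44, SE 0.100, adjusted p = 0.0142, edgeR). CENPL (chromosome 1, 173799550 to 173824720), which pairs with CENPN to read CENPA chromatin, was at 31.1, 35.1 and 37.5 CPM in the controls and at 55.7, 42.7 and 43.9 CPM with Arg. Library A with Arg was the highest by far (log2 fold change 0.45, SE 0.114, adjusted p = 0.0230, edgeR). ZWINT (chromosome 10, 56357228 to 56361275) was at 128, 119 and 121 CPM in the controls and at 141, 166 and 150 CPM with Arg (log2 fold change 0.31, SE 0.0831, adjusted p = 0.0321, edgeR). Its groups did not overlap.

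CENPV (chromosome 17, 16342534 to 16353656) moved the other way. It was at 44.2, 34.7 and 35.8 CPM in the controls and at 29.7, 24.3 and 24.3 CPM with Arg, again with no overlap. Its log2 fold change was -0.55 (SE 0.119, adjusted p = 0.00909, edgeR).

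**Figure D2:**
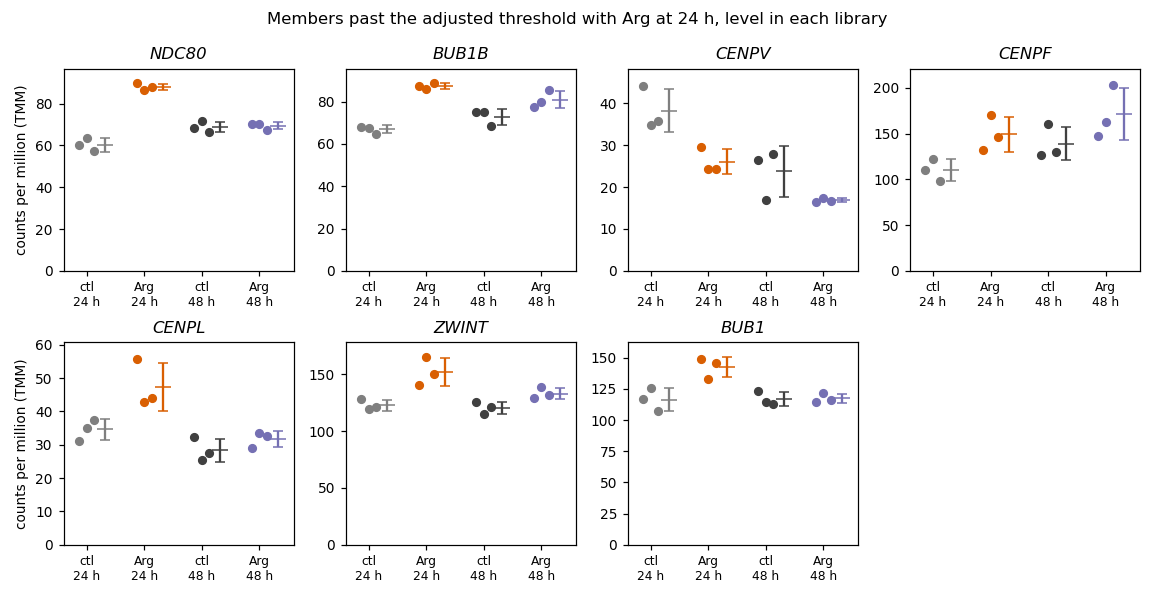
CPM (TMM-scaled, axis from 0) of the 7 members that passed the adjusted threshold at 24 h, in control (ctl) and Arg libraries at 24 and 48 h; points are libraries and the bar beside them is the mean ± SD (n = 3). NDC80 with Arg at 24 h lies at 86.7 to 89.7 CPM, above the 9 libraries of the other groups, and CENPV is lowest with Arg at 48 h.

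By role, 2 of 10 outer kinetochore members were called higher, 2 of 7 checkpoint members, 1 of 2 corona members and 1 of 15 CCAN members, while CENPV was the 1 of 4 centromeric chromatin members called lower, and none of the 5 SKA and shugoshin members passed in either direction. The other core subunits did not pass. CENPA was at 45.0, 39.2 and 41.3 CPM in the controls and at 45.2, 47.1 and 49.4 CPM with Arg (log2 fold change 0.17, SE 0.094, adjusted p = 0.281, edgeR). KNL1 was at 40.6, 47.5 and 40.2 CPM in the controls and at 55.5, 48.9 and 44.8 CPM with Arg, and its groups overlapped (0.22, SE 0.104, adjusted p = 0.224, edgeR). MAD2L1, the MAD2 protein that changes shape to inhibit CDC20, was at 157, 151 and 173 CPM in the controls and at 153, 130 and 143 CPM with Arg, a log2 fold change of the opposite sign to its checkpoint neighbours (-0.18, SE 0.087, adjusted p = 0.233, edgeR). The NDC80 complex was not uniform in its values. NUF2 (0.16), SPC25 (0.27) and SPC24 (0.04) all had smaller log2 fold changes than NDC80, with adjusted p from 0.114 to 0.885, and these subunits were not tested against each other. The MIS12 complex members MIS12, DSN1, NSL1 and PMF1 had values from -0.23 to -0.02.

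The number of calls at 24 h depended on single libraries. Without control library A only NDC80 and BUB1B remained among the upregulated members and CENPV was lost, and without control library C only NDC80, CENPL and CENPV remained. The calls over the whole table fell in the same fits, from 398 higher and 549 lower to 126 and 233 without control library A and to 152 and 286 without control library C. Without Arg library B the calls were NDC80, BUB1B and CENPL (all genes 149 higher and 253 lower), and without Arg library C they were NDC80 and CENPL (136 and 245), with CENPV lost in both. Without Arg library A, BUB1 and CENPL were lost and CENPC passed (482 and 639). NDC80 passed in each of these fits, with adjusted p from 0.000307 to 0.00876. Leaving out control library B gave 6 members higher and 1 lower, while the calls over the whole table rose to 647 and 882. The share of counts from mitochondrially encoded genes moved with the treatment, from 1.20% to 1.30% in the controls and from 0.624% to 0.802% with Arg. With those genes left out, 5 members were upregulated and 1 downregulated, and BUB1 had an adjusted p of 0.0503.

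The promoters of the upregulated members are shown because these genes moved in the same direction at 24 h, and because a CCAAT box and the cell cycle homology region (CHR) are elements known from promoters of G2 and mitosis genes. Of the 6 upregulated members, 5 matched an entry by symbol in the RefSeq promoter table (GRCh38.p14). The stretches shown are 120 bases each, 5′ to 3′ on the strand of the gene, and capitals mark CCAAT (or ATTGG on the other strand) and the CHR letters TTTGAA (or TTCAAA on the other strand). They lie at chr18:2571421-2571540 (NDC80, plus strand), chr15:40160933-40161052 (BUB1B, plus), chr1:214603075-214603194 (CENPF, plus), chr10:56361260-56361379 (ZWINT, minus) and chr2:110678085-110678204 (BUB1, minus).
NDC80: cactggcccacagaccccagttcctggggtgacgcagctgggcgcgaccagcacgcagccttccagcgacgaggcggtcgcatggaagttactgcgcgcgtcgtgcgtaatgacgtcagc
BUB1B: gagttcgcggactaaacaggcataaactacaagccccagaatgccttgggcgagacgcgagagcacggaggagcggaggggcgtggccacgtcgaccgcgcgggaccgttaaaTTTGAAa
CENPF: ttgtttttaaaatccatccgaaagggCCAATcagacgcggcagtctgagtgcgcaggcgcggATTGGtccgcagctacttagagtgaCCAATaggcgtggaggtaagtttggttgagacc
ZWINT: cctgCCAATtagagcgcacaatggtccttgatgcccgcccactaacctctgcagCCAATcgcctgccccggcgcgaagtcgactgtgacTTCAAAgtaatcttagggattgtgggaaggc
BUB1: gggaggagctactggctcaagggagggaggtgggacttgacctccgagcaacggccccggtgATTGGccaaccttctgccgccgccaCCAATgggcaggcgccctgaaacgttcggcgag

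BUB1B had a CHR whose first base lay 23 bases upstream of the RefSeq start and no CCAAT box in the 250 bases searched. ZWINT had a CHR on the other strand at 31 bases and CCAAT boxes at 116 and 66 bases upstream. CENPF had CCAAT boxes at 94 and 33 bases and an inverted one at 58 bases, and BUB1 had one at 54 and an inverted one at 79 bases. NDC80, with the largest log2 fold change of the 6, had none of the letters searched. Over the 40 members with an entry, 22 (55.0%) had CCAAT, against 33.0% of all 27305 promoters of the same length, and 7 (17.5%) had TTTGAA or TTCGAA, against 14.6%. Both occurred together in 6 members (15.0%), against 5.24% of all promoters, and CENPVL3, with 92 counts in all, was 1 of the 6. The entries are not all distinct: CENPVL1 and CENPVL2 have the same 250 bases, as do CENPS and CENPS-CORT. Of the 37 members with an entry that were tested at 24 h, 20 (54.1%) had CCAAT and 7 (18.9%) had TTTGAA or TTCGAA. The E2F letters TTTGGCGC or TTTCGCGC occurred in 1 member (2.5%), CENPU, against 0.996%. In the stretches shown no motif shares bases with another. These are counts of letters on both strands in a fixed window, not sites of binding.

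The comparison at 48 h asked the same at the later time. No member passed the threshold in either direction with edgeR or with DESeq2. Of all 14562 genes 0% were called higher and 0.117% lower by edgeR, and by DESeq2 0.154% and 0.466% of the 27248 genes it tested. DESeq2 was run without the filter on low counts, so its backgrounds include genes of low count that edgeR left out. At an unadjusted p under 0.05 edgeR gave 1 member higher (CENPF) and 6 lower, against 5.94% and 7.49% of all genes, and DESeq2 gave 1 higher and 5 lower (backgrounds 2.80% and 3.63%). The median log2 fold change of the 44 members tested was -0.0028, with 22 positive and 22 negative. The groups did not overlap for 4 members that were higher (ZWINT, BUB1B, CENPC and CENPBD1; background 8.56%) and for 6 that were lower (CENPX, CENPH, CENPW, CENPJ, NUF2 and SKA3; background 8.51%). Without control library B the groups of 2 and 3 libraries did not overlap for 5 members that were higher (background 22.8%) and 10 that were lower (background 22.4%).

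Of the 6 members with the smallest p at 48 h, 3 were CCAN subunits with lower levels with Arg. CENPX, which also works with CENPS outside the kinetochore in DNA repair, was at 40.8, 36.0 and 40.5 CPM in the controls and at 34.6, 29.4 and 28.3 CPM with Arg (log2 fold change -0.35, SE 0.102, adjusted p = 0.201, edgeR). CENPH was at 60.9, 52.6 and 57.6 CPM in the controls and at 50.9, 50.2 and 43.5 CPM with Arg (-0.24, SE 0.0891, adjusted p = 0.268, edgeR). CENPW was at 37.7, 36.4 and 36.7 CPM in the controls and at 29.8, 33.9 and 30.9 CPM with Arg (-0.23, SE 0.0876, adjusted p = 0.288, edgeR). In all of these the 2 groups were separate, yet none passed the adjusted threshold.

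CENPV was at 26.5, 16.8 and 27.9 CPM in the controls and at 16.5, 17.5 and 16.8 CPM with Arg, so that control library B lay among the Arg libraries (-0.49, SE 0.165, adjusted p = 0.237, edgeR). CENPF was at 127, 160 and 130 CPM in the controls and at 148, 163 and 203 CPM with Arg, and again control library B lay among the Arg libraries (0.30, SE 0.115, adjusted p = 0.296, edgeR). CENPJ, a centriole assembly protein that carries a CENP symbol, was at 8.71, 10.8 and 10.3 CPM in the controls and at 6.78, 8.04 and 7.83 CPM with Arg (-0.40, SE 0.159, adjusted p = 0.305, edgeR).

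Without control library B, 4 members passed at 48 h: CENPF was higher (0.41, adjusted p = 0.00218), and CENPV (-0.69), CENPX (-0.40) and CENPH (-0.30) were lower, with adjusted p from 7.49e-05 to 0.0144 (edgeR). In the same fit 1152 of all 14854 genes were called higher (7.76%) and 1213 lower (8.17%), so neither the 1 nor the 3 of 44 members was a larger share than the background. At an unadjusted p under 0.05 that fit gave 3 members higher and 8 lower, against 14.7% and 14.6% of all genes, and the median of the members was -0.0209. CENPW had -0.24 (adjusted p = 0.0757) and CENPJ -0.33 (adjusted p = 0.191) there. Without the filter on low counts CENPF and CENPV passed.

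Of the core subunits at 48 h, NDC80 was at 68.4, 71.5 and 66.6 CPM in the controls and at 70.3, 70.4 and 67.4 CPM with Arg. These groups overlapped almost entirely (log2 fold change 0.01, SE 0.070, adjusted p = 0.970, edgeR), and its sign changed when single libraries were left out. BUB1 was at 123, 114 and 112 CPM in the controls and at 114, 122 and 116 CPM with Arg (0.01, adjusted p = 0.977, edgeR). CENPA (0.07, adjusted p = 0.808), KNL1 (0.14, adjusted p = 0.528) and MAD2L1 (-0.08, adjusted p = 0.624) did not pass either. Without control library B the values were 0.04 for NDC80, -0.0076 for BUB1, -0.03 for CENPA, 0.07 for KNL1 and -0.13 for MAD2L1, with adjusted p from 0.156 to 0.952 (edgeR).

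**Figure D3:**
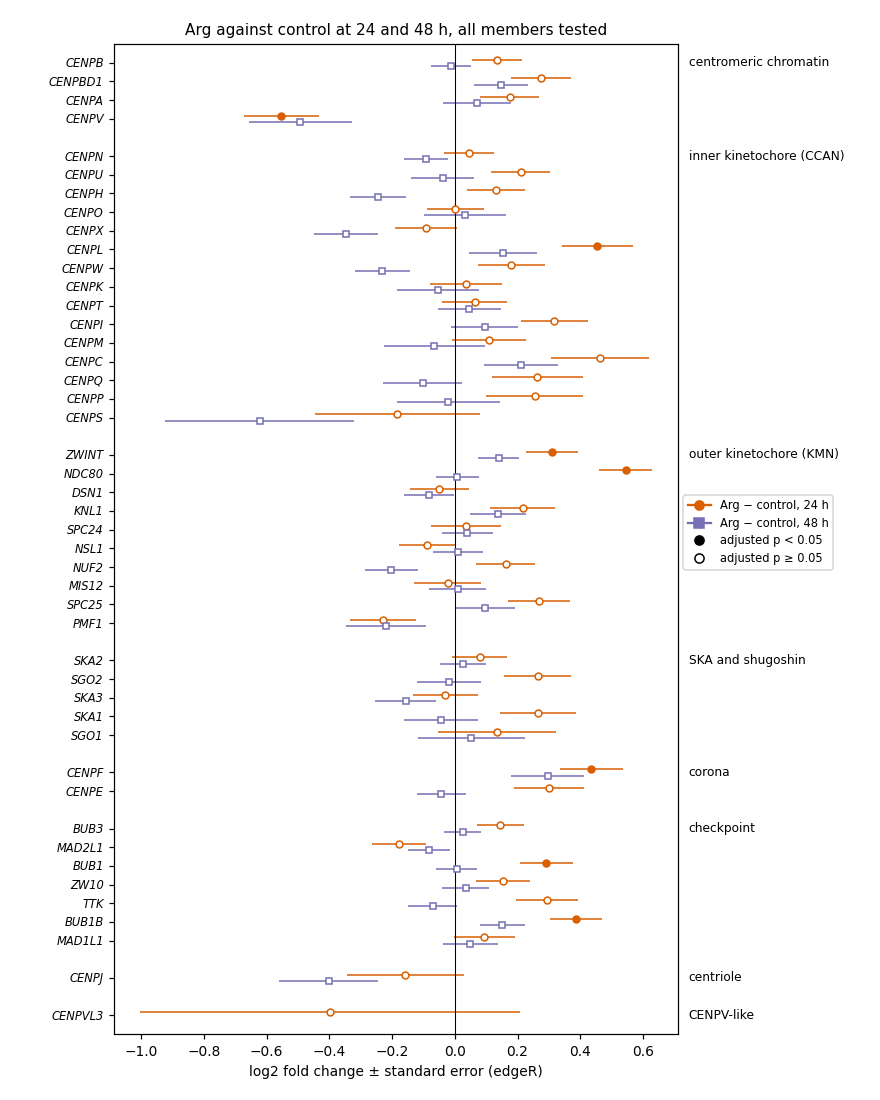
Log2 fold change of Arg over control (± SE, edgeR) for each member tested at 24 h (circles) and 48 h (squares), grouped by role; filled symbols passed adjusted p under 0.05. At 24 h the median was 0.15 and 7 members are filled; at 48 h the median was -0.0028 and none is filled.

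The difference between the Arg effects at the 2 times was tested as an interaction over all 12 libraries, as the effect at 48 h minus that at 24 h. A negative difference means a value that was less positive or more negative at 48 h. No member passed in either direction with edgeR, where 0.0132% of 15148 genes were called with a positive difference and 0% with a negative one. DESeq2 called 1 member, NDC80, with a negative difference, where 0.0302% of the 29787 genes it tested were called positive and 0.0403% negative. At an unadjusted p under 0.05 there were 0 members with a positive difference (background 3.06%) and 8 with a negative one (background 3.80%). DESeq2 gave 0 and 8 (backgrounds 1.72% and 1.82%, over a set that includes genes of low count). The 8 in edgeR were NDC80, CENPH, CENPW, NUF2, TTK, BUB1, CENPE and BUB1B. The Arg effect changed sign from 24 to 48 h for CENPH (0.13, then -0.24), CENPW (0.18, then -0.23) and NUF2 (0.16, then -0.20). It did so too for TTK (0.29, then -0.07) and CENPE (0.30, then -0.04). NDC80, BUB1 and BUB1B had positive values at both times. The interaction was negative for 38 of 45 members, with a median of -0.17 against -0.0057 for all genes. Without library B of the 48 h control, 0 and 9 members were under an unadjusted p of 0.05 (backgrounds 4.55% and 4.67%), with CENPL and CENPX among them and BUB1B not, and the median was -0.18. NDC80 passed in that fit, in which 28 and 18 of 15508 genes were called.

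NDC80 had the smallest p of the members and ranked 4 of all genes (log2 difference -0.53, SE 0.104, adjusted p = 0.135, edgeR). Its adjusted p was 0.000731 with DESeq2, 0.0228 without the filter and 0.0405 without library B of the 48 h control. In the remaining alternatives it ran from 0.0514 to 0.560, with the difference between -0.57 and -0.50 throughout. CENPH (-0.37, SE 0.128, adjusted p = 0.606) and CENPW (-0.41, SE 0.141, adjusted p = 0.606) followed. At 24 h CENPH was at 49.9, 48.6 and 55.9 CPM in the controls and at 59.1, 56.7 and 53.5 CPM with Arg, and CENPW was at 35.1, 32.6 and 31.7 CPM and at 43.1, 33.6 and 36.1 CPM, so the groups of both overlapped at that time. CENPA (-0.10), KNL1 (-0.08) and MAD2L1 (0.10) had adjusted p from 0.922 to 0.956. Without library B of the 48 h control CENPH had -0.43 and CENPW -0.42 (adjusted p = 0.220 and 0.312), and CENPA had -0.20, KNL1 -0.14 and MAD2L1 0.05, with adjusted p from 0.689 to 0.938 (edgeR).

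The time comparisons use the same libraries as the Arg comparisons, so their values are given side by side only. In the untreated control 3 members were higher at 48 h than at 24 h (CENPC, CENPE and CENPF) and 6 were lower (SKA3, CENPA, MAD2L1, SPC25, CENPV and CENPO). Of all 14449 genes 9.90% were called higher and 10% lower, so the members' counts were near the background. The groups did not overlap for 9 members that were higher (background 19.2%) and 11 that were lower (background 19.7%), and the median log2 difference was 0.04. Without library B at 48 h, 15 members that were higher and 11 that were lower did not overlap (background 24.2% each), and the median was 0.0214. With scaling to library size alone, 4 members were higher and 6 lower, and the genes called over the whole table moved from 1431 higher and 1451 lower to 1845 and 1008.

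With Arg, no member was higher at 48 h and 16 were lower, against backgrounds of 14.3% and 14.0% of 14398 genes. They were 3 of 4 centromeric chromatin members (CENPA, CENPB and CENPV), 4 of 15 CCAN members (CENPL, CENPN, CENPO and CENPX), 3 of 10 outer kinetochore members (NDC80, NUF2 and SPC25), 4 of 7 checkpoint members (BUB1, BUB3, MAD2L1 and TTK) and 2 of 5 SKA and shugoshin members (SKA1 and SKA3). Beside the count of 0, edgeR and DESeq2 each gave 1 member higher at an unadjusted p under 0.05 (backgrounds 19.3% and 9.67%). DESeq2 called 0 higher and 16 lower, against 6.79% and 6.95% of the 26859 genes it tested, which include those of low count. The groups did not overlap for 1 member that was higher (CENPC, background 21.1%) and 20 that were lower (background 21.2%). The median log2 difference was -0.21, against 0.0009 for all genes, and was -0.13 after a correction for gene length, with 14 members lower. With scaling to library size alone 1 member was higher (CENPC) and 12 lower, and over the whole table the calls moved from 2060 higher and 2012 lower to 2568 and 1453.

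CENPA was at 45.0, 39.2 and 41.3 CPM in the 24 h controls and at 30.3, 24.8 and 31.4 CPM in the 48 h controls (log2 difference -0.53, SE 0.111, adjusted p = 0.00800, edgeR). With Arg it was at 45.2, 47.1 and 49.4 CPM at 24 h and at 31.0, 31.6 and 28.3 CPM at 48 h (-0.64, SE 0.0889, adjusted p = 2.63e-05, edgeR). Every 48 h library was below every 24 h library, with or without Arg.

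SKA3, a subunit of the SKA complex that helps the NDC80 complex track microtubule ends, was at 41.1, 35.8 and 35.9 CPM in the 24 h controls and at 25.8, 24.9 and 26.6 CPM in the 48 h controls (-0.54, SE 0.0999, adjusted p = 0.00495, edgeR). With Arg it was at 41.0, 34.1 and 35.4 CPM at 24 h and at 22.0, 23.2 and 24.4 CPM at 48 h (-0.67, SE 0.0993, adjusted p = 5.05e-05, edgeR). SPC25, which joins the NDC80 complex to the MIS12 complex, was at 39.0, 40.2 and 33.5 CPM and then 28.6, 25.5 and 29.0 CPM in the controls (-0.44, SE 0.107, adjusted p = 0.0156, edgeR). With Arg it was at 46.2, 42.4 and 47.1 CPM and then 29.8, 30.4 and 28.8 CPM (-0.61, SE 0.0882, adjusted p = 4.05e-05, edgeR). For both genes the 24 h and 48 h libraries were separate in both media.

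CENPV was lower at 48 h in the controls (-0.68, SE 0.170, adjusted p = 0.0169) and with Arg (-0.63, SE 0.112, adjusted p = 0.000328, edgeR), so that its mean ran from 38.2 ± 5.19 CPM (SD, n = 3) in the 24 h control to 16.9 ± 0.530 CPM with Arg at 48 h. MAD2L1 was at 131, 118 and 130 CPM in the 48 h controls, below the 24 h controls (-0.34, SE 0.0814, adjusted p = 0.0134, edgeR), and at 120, 120 and 117 CPM with Arg at 48 h, below the 24 h libraries with Arg (-0.25, SE 0.074, adjusted p = 0.0150, edgeR). CENPB (-0.38, SE 0.0668, adjusted p = 0.000295) and CENPL (-0.58, SE 0.104, adjusted p = 0.000332, edgeR) were lower at 48 h with Arg. In the controls they had values of -0.23 and -0.28 and did not pass (adjusted p = 0.0547 and 0.109).

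A few members were higher at 48 h. CENPC was at 13.2, 13.3 and 11.1 CPM in the 24 h controls and at 16.7, 19.1 and 20.9 CPM in the 48 h controls (0.59, SE 0.138, adjusted p = 0.0130, edgeR), while with Arg it was at 13.4, 20.3 and 18.4 CPM and then 20.9, 23.7 and 21.1 CPM (0.34, adjusted p = 0.0683). CENPE, the kinesin of the corona, was higher in the controls (0.37, SE 0.0925, adjusted p = 0.0170) and had a value of 0.03 with Arg. CENPF was the weakest call (0.34, SE 0.107, adjusted p = 0.0451). Without library B of the 48 h control, the differences in the controls were -0.44 for CENPA, -0.52 for SKA3, -0.38 for SPC25, -0.49 for CENPV, -0.30 for MAD2L1, 0.58 for CENPC and 0.35 for CENPE, with adjusted p from 0.00547 to 0.0269 (edgeR). CENPF was then at 0.22 (adjusted p = 0.112), CENPB at -0.21 and CENPL at -0.21 (adjusted p = 0.0928 and 0.233), and none of these passed.

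NDC80 had values of opposite sign over time, 0.19 in the controls (adjusted p = 0.115) and -0.34 with Arg (adjusted p = 0.00152). BUB1 had 0.01 (adjusted p = 0.961) and -0.28 (adjusted p = 0.00586), and KNL1 had 0.20 and 0.12 and passed in neither. Without library B of the 48 h control, the values in the controls were 0.16 for NDC80, 0.02 for BUB1 and 0.26 for KNL1, with adjusted p from 0.0919 to 0.896 (edgeR). Over the 4 groups, the mean was highest in Arg at 24 h for 24 of 45 members (53.3%), against 22.5% of 15148 genes. The mean was lowest there for 2 members (4.44%), against 21.8% of all genes. With library B of the 48 h control left out of the means, it was again highest there for 24 members, against 22.1% of all genes.

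The calls over time also rested on single libraries. In the controls, without library A at 24 h 1 member was higher (CENPE) and 1 lower (SKA3), and without library C at 24 h none was higher and 3 were lower (SKA3, CENPA and SPC25). The calls over the whole table fell in the same fits, from 1431 higher and 1451 lower to 422 and 406 without library A and to 497 and 501 without library C. CENPF was lost when any 1 of the 48 h control libraries was left out, library B included, with 2 members still higher and 6 lower without library B (all genes 1152 and 1268). With Arg, 10 members were lower without library B at 48 h (all genes 1560 higher and 1378 lower, against 2060 and 2012), and 13 to 16 in the other fits that left out 1 library. Without Arg library B at 24 h, CENPC and CENPF were called higher at 48 h with Arg. The summed fibroblast markers were also higher at 48 h (72.7 to 103 CPM) than at 24 h (30.2 to 54.4 CPM), and their part in these results was not tested.

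**Figure D4:**
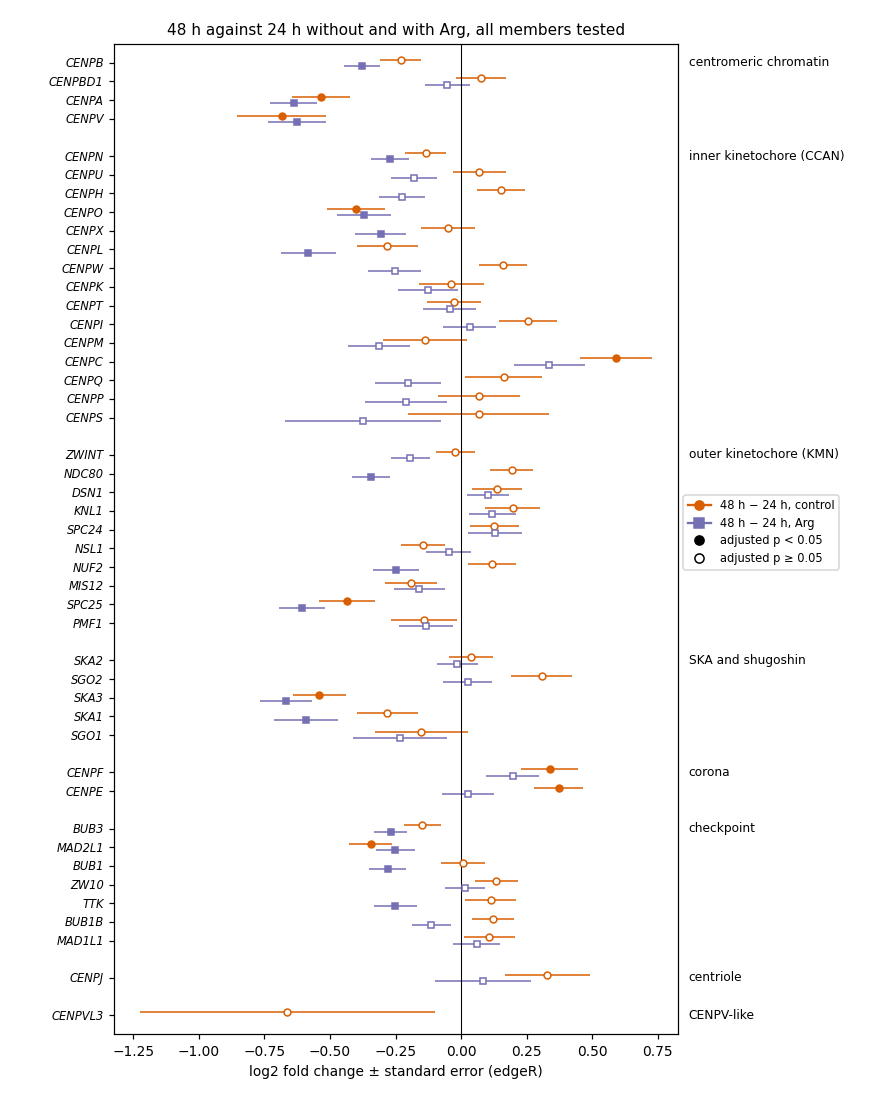
Log2 fold change of 48 h over 24 h (± SE, edgeR) for each member tested, in the untreated control (circles) and with Arg (squares), grouped by role; filled symbols passed adjusted p under 0.05. In the control 3 members are filled to the right and 6 to the left of 0, and with Arg none and 16.

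Partner proteins of the kinetochore were taken as 4 further lists. With Arg at 24 h, 2.79% of all genes were called higher and 3.84% lower. Of the chromosomal passenger complex, which corrects faulty attachments, 2 of 4 genes were upregulated by Arg at 24 h. The borealin gene CDCA8 was at 133 ± 8.14 CPM (SD, n = 3) in the controls and 175 ± 3.78 CPM with Arg (log2 fold change 0.40, SE 0.0787, adjusted p = 0.0056, edgeR). INCENP, the scaffold of the complex, was at 81.5 ± 9.65 and 106 ± 12.7 CPM (0.37, SE 0.103, adjusted p = 0.0372, edgeR). Survivin, encoded by BIRC5, did not pass (0.17, adjusted p = 0.179). None of the 4 genes for loading of CENPA passed at 24 h, and its chaperone HJURP had a value of 0.24 (adjusted p = 0.114).

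Of 15 other kinetochore partners 2 were upregulated at 24 h and none downregulated. They were the microtubule depolymerase KIF2C, at 156 ± 5.22 and 194 ± 4.55 CPM (0.31, SE 0.0754, adjusted p = 0.0206, edgeR), and the kinesin KIF18A, at 32.9 ± 2.34 and 41.4 ± 1.11 CPM (0.33, SE 0.0960, adjusted p = 0.0469, edgeR). Of 13 cohesin genes only CDCA5, which encodes the cohesion factor sororin, passed, at 208 ± 1.67 and 253 ± 2.79 CPM (0.28, SE 0.0720, adjusted p = 0.0242, edgeR). At 48 h none of the 36 partners passed, where 0% of all genes were called higher and 0.117% lower. The medians of the 4 lists at 48 h ran from -0.05 to 0.03, against 0.06 to 0.27 at 24 h. Between 24 and 48 h in the controls, 2 of 4 passenger, 1 of 4 loading, 3 of 15 kinetochore and 1 of 13 cohesin genes were lower, and 2 kinetochore and 4 cohesin genes were higher. With Arg 3, 1, 5 and 1 genes of these lists were lower, and 1 kinetochore and 4 cohesin genes were higher. Over all genes, 9.90% were called higher and 10% lower in the controls, and 14.3% and 14.0% with Arg. The 1 of 13 cohesin genes lower in each medium was not a larger share than these backgrounds. Nor was the 1 of 15 kinetochore genes higher with Arg. The lists are short, and their counts were not tested against these shares.

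Longer members tended to have higher log2 fold changes with Arg. The Spearman correlation of log2 fold change with exonic length, across genes that share their libraries and are not independent, was 0.33 over 45 members at 24 h and 0.40 over 44 at 48 h, against 0.05 and 0.16 over all genes. For 48 h over 24 h it was 0.30 in the controls and 0.43 with Arg, against 0.13 and 0.20. Its part in the results was not tested beyond the length correction, which left 6 members higher and 1 lower at 24 h.

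Some members share exons with other genes in GENCODE release 44, and the sources used here do not give the strand setting of the counting. Among the members called, BUB1B shares 240 exonic bases with PAK6 on the same strand, CENPV shares 258 with PIGL on the opposite strand and CENPA shares 138 with SLC35F6. CENPO shares 27.0% of its exonic bases with ADCY3, so its lower level at 48 h is uncertain, as are the values of CENPP (39.9% shared with IPPK) and CENPS (65.0% shared with CENPS-CORT).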

How the data were processed

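RNA sequencing of 12 TIGK libraries was used, in 4 groups of 3. Per the labels and the study's methods, the authors trimmed the reads with fastp, aligned 150 bp read pairs to the GRCh38/hg38 genome (STAR) and assigned them to genes (featureCounts), which gave the raw counts they deposited. Versions, the annotation release and the strand setting are not given in the sources used here. The deposited gene length was used for levels per kilobase.

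Counts were tested in R 4.3.3 with edgeR 4.0.16 (filterByExpr by group, TMM scaling, quasi-likelihood test) on all genes of the table, 2 groups at a time, and the interaction over 12 libraries, with Benjamini-Hochberg adjustment over all genes and a threshold of 0.05. The standard error was the log2 fold change divided by the square root of F. CPM were scaled by TMM over all 12 libraries. The main edgeR fit of each comparison was first run on simulated counts, with changes larger than those of the members. The alternatives were not simulated, and power for changes as small as those seen here was not estimated. With 3 libraries against 3 an exact permutation test cannot go below 0.1, so none was used.

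The members, lists and tests were chosen with earlier results of these data known. Members were named with full values if they passed the threshold in an Arg comparison (or had one of the 6 smallest p), had one of the 6 smallest p over time or the 3 smallest in the interaction, or were CENPA, KNL1, NDC80, BUB1 or MAD2L1; of each partner list at most 3 genes per Arg comparison. The remaining members that were called over time, and NUF2, were named after their values were seen. Alternatives were DESeq2 1.42.0, other scalings and filters, a replicate block, a gene length correction, a table without the mitochondrially encoded genes, and fits that each lacked 1 library. DESeq2 was run on every gene with a count, without the filter, so its shares over all genes are not directly comparable with those of edgeR. The counts of groups that do not overlap, and of the group with the highest mean, without library B of the 48 h control were added after the data were seen. Motifs were searched in the 250 bases upstream of each RefSeq start (GRCh38.p14), and the printed stretches hold at most 30 bases of the deposited gene models, which begin up to 51 bases further upstream. The list of shared exons is not complete, since an item is not reported here.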

Additional observations from a re-analysis of the deposited data

Results flagged for a closer look

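NUF2, a partner of NDC80 in the same complex, had opposite directions at the 2 times, with no overlap in either. At 24 h it was at 39.5, 37.8 and 36.0 CPM in the controls and at 45.5, 41.4 and 40.0 CPM with Arg, and at 48 h at 40.0, 38.8 and 43.9 CPM in the controls and at 36.5, 34.3 and 36.1 CPM with Arg. The difference between the effects, tested as the interaction, was -0.36 on the log2 scale (SE 0.125, adjusted p = 0.606, edgeR), so it did not pass, and neither did the effect at 24 h (0.16, adjusted p = 0.330) or at 48 h (-0.20, adjusted p = 0.337). Without library B of the 48 h control NUF2 had -0.24 at 48 h (adjusted p = 0.0643) and an interaction of -0.40 (adjusted p = 0.272, edgeR), and again neither passed. NUF2 was singled out from the members by this pattern. With all libraries, 12.9% of all genes were higher without overlap at 24 h and 8.51% lower without overlap at 48 h. The share of all genes with both was not counted.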

How the results depend on the processing

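At 24 h the member counts and the median log2 fold change stayed within 1.5 times and 0.0419 (the spread of the member median between libraries of a group) of the reported values under DESeq2, DESeq2 size factors, library size scaling, both other filters, the single model over 12 libraries, the length correction and the fit without mitochondrially encoded genes. Leaving out 1 library gave 2 to 6 members higher and 0 to 1 lower at 24 h, with medians from 0.119 to 0.176, 0 to 1 higher and 0 to 3 lower at 48 h, 0 to 3 higher and 1 to 7 lower over time in the controls, 0 to 2 higher and 10 to 16 lower over time with Arg (medians from -0.246 to -0.153), and 0 to 1 lower in the interaction. Without the filter 1 member was higher and 1 lower at 48 h, 1 was higher over time with Arg, and 1 was lower in the interaction, as with DESeq2. Over all genes at 48 h, 0 were higher and 17 lower, against 42 and 127 with DESeq2 and 199 and 374 without the filter. With library size scaling the median was 0.0983 in the controls over time and -0.149 with Arg, where 1 member was higher. With the length correction the median over time with Arg was -0.128.

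The deviations of same-lettered libraries from their group means correlated between -0.0615 and 0.135, highest for the B libraries of the control groups. A replicate block moved the calls over all genes from 0 higher and 17 lower to 43 and 141 at 48 h. Over time in the controls they moved from 1431 and 1451 to 1969 and 2075. They fell from 398 and 549 to 379 and 545 at 24 h, and from 2060 and 2012 to 1926 and 1853 over time with Arg. With the replicate block 5 members were higher and 1 lower at 24 h (BUB1 had an adjusted p of 0.0623), 0 passed at 48 h, and 1 was higher over time with Arg. With the length correction and the replicate block 5 were higher over time in the controls, and the median with Arg was -0.131.

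Signs changed for values that did not pass the threshold, with a size of at most 0.12 when all libraries were used. BUB1 at 48 h was -0.0053 with the length correction and -0.0046 with the block added, and BUB1 over time in the controls was -0.00075 with DESeq2, -0.0018 without the filter, -0.0156 with the length correction and -0.0146 with the block added. KNL1 over time with Arg, at 0.12 as reported, was -0.00056 with the length correction. Leaving out 1 library, at 48 h BUB1 ran from -0.0216 to 0.0478, NDC80 from -0.0162 to 0.0389 and CENPA from -0.0253 to 0.134, BUB1 over time in the controls from -0.0574 to 0.0571, and the KNL1 interaction from -0.148 to 0.0090. The causes were not tested. Depth limits CENPS, CENPP, CENPJ and SGO1 most, all under 12 CPM, and the CENPV-like genes, for which a difference was not detectable.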
